A study of Homo sapiens with 2 samples.

Results

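The 10 genes described here, OTX1, OTX2, EMX1, EMX2, SIX3, LHX2, LHX9, EN1, EN2 and GBX2, encode homeobox transcription factors that mark forebrain, midbrain and midbrain-hindbrain identity. They were chosen by name, and all 10 were found among the 33694 genes listed in each of 2 single-cell libraries. At least 1 unique molecular identifier (UMI), the count of a captured transcript, was present for 9 of the 10 in the first library and for 10 of 10 in the second. Both were made from the human embryonic stem cell line H9, induced towards enteric neural crest cells (ENCCs), the progenitors of the neurons and glia of the gut. The D10 library held adherent cells on Geltrex at day 10 of the induction, and the D15 library held free-floating enteric crestospheres at day 15. The cells carried no transgene and received no treatment beyond the induction, which uses BMP4, CHIR (a GSK3 inhibitor), SB431542 (a TGF-beta receptor inhibitor) and, in its last stage, retinoic acid. The monolayers were detached on day 12 and aggregated in suspension with FGF2 and CHIR. Each library (n = 1 per stage) pooled 2 biological repeats whose cells are not told apart in the deposited annotation. No test between stages was therefore possible, and stage, medium, culture format and library cannot be told apart.

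The vertebrate neural plate is patterned along its length by homeobox genes. OTX1 and OTX2 mark forebrain and midbrain and meet GBX2, a hindbrain gene, at the midbrain-hindbrain boundary, where EN1 and EN2 are active on both sides. EMX1 and EMX2 pattern the dorsal telencephalon, EMX2 is also needed in the urogenital system, SIX3 marks the most anterior neural plate and the lens, and LHX2 and LHX9 are LIM homeobox genes of eye, forebrain and limb. Enteric neural crest arises mainly at the level of the posterior hindbrain, behind these domains, and retinoic acid is a posteriorizing signal. Cranial crest, by contrast, leaves the neural tube partly from OTX2-positive levels.

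The members lie apart from each other in the genome. In GRCh38 with GENCODE 29 annotation all 10 are protein-coding genes. OTX1 spans chromosome 2, 63050057 to 63057836, on the plus strand, and OTX2 spans chromosome 14, 56799905 to 56810479, on the minus strand. EMX2 spans chromosome 10, 117542444 to 117549546, on the plus strand, and EN1 spans chromosome 2, 118842171 to 118847678, on the minus strand. SIX3, EMX1 and GBX2 also lie on chromosome 2. LHX9 lies on chromosome 1, EN2 on chromosome 7 and LHX2 on chromosome 9.

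OTX1, OTX2 and EMX2 held most of the member UMIs, and the sequence before their RefSeq start sites is shown because OTX1 and OTX2 were lower and EMX2 was higher in the second library. Windows of 250 bases upstream of a start (GRCh38.p14) were matched by symbol for 7 of the 10 members. The stretches are printed 5′ to 3′ on the strand of the gene, and capitals mark a match to the homeodomain motif TAATTA. The OTX1 and EMX2 windows lie inside the gene spans given above, before an internal start. A second OTX2 window, whose start was not found in an annotated transcript, is not printed. For the OTX genes, bases in the UTR of another annotated transcript were left out. The EMX2 window lies within such a UTR over all of its 250 bases, so only the match and its flanks are shown.
OTX1, chr2:63050580-63050801, plus strand: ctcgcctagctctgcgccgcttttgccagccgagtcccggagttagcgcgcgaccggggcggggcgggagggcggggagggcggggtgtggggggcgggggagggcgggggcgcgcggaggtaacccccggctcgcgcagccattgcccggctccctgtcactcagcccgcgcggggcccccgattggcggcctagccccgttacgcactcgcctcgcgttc
OTX2, chr14:56810480-56810729, minus strand: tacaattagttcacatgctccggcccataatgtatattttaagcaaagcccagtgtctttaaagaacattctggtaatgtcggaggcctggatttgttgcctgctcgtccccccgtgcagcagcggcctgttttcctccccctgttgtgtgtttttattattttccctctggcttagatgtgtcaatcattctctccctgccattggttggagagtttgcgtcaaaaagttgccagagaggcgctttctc
EMX2, chr10:117542704-117542733, plus strand: tgatccccgcacTAATTAggctcatgaact
The windows were also searched on both strands for 3 further motifs. The form TAATCC, bound by homeodomains of the OTX type, was present in 5.62% of 35116 RefSeq windows of the same length. The nuclear receptor half-site AGGTCA was present in 12.1% of them, the TCF/LEF form ATCAAAG in 2.26%, and the homeodomain motif named above in 4.35%. Its occurrence at position -30 from the EMX2 start was the 1 match in the windows of the 7 members. G and C made up 77.5% of the OTX1 stretch and 47.2% of the OTX2 stretch, so the windows of the 2 OTX genes differed in base composition.

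The D10 library held 9627 cells and 70488169 UMIs, and the D15 library held 6320 cells and 84976253 UMIs, with medians of 6713 and 11770.5 UMIs per cell. The deposited annotation keeps 7295 and 5336 of these cells and marks the others as filtered, and 102 cell barcodes occur in both libraries. Kept cells at D10 comprise 4921 ENCCs (annotated ENC), 1811 neuro-epithelial progenitors (NEP), 324 cranial placode cells (CP) and 239 non-neural ectoderm cells (NNE). At D15 they comprise 4934 ENCCs, 208 CP1, 43 CP2, 104 NEP and 47 mesenchymal (Mes) cells. At both stages the 10 genes with the highest fold in ENCCs included SOX10 and no marker fixed for another type. In the D15 cluster annotated NEP the same ranking held the keratin genes KRT19 and KRT18, which were fixed as NNE markers, but no marker of NEP, while in CP2 it held the NEP marker PAX6. These clusters are therefore named here as annotated, and their values are set beside those of D10 NEP and CP cells without a comparison by type. The keratins by themselves do not set the D15 cluster annotated NEP apart from D10 NEP cells. KRT18 was at 538 CPM (counts per 1000000 UMIs of the same cells) in D10 NEP cells and at 374 CPM in that cluster. KRT19 was at 266 and 168 CPM in the same order. NNE markers summed to 1298 and 926 CPM, and NEP markers to 1416 and 266 CPM. Of the D10 ENCCs, 256 lay outside the numbered subclusters ENC 1 to ENC 4 (subtype Non-NC). Their NEP markers summed to 1126 CPM, against 38.9 CPM in the numbered subclusters and 1416 CPM in NEP cells. Comparisons with ENCCs at D10 are given with and without them.

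Across whole libraries, OTX1 and OTX2 were far lower in the D15 library, EMX2 and EN1 were higher, and the remaining members were near the limit of detection in both. OTX1 was at 24.2 CPM at D10 (exact Poisson 95% interval 23.1 to 25.4, 1705 UMIs) and at 0.235 CPM at D15 (0.144 to 0.363, 20 UMIs). Its level was 103-fold lower at D15, with an exact conditional binomial 95% interval of 66.3 to 169. OTX2 was at 29.6 CPM (28.3 to 30.9, 2086 UMIs) at D10 and at 4.12 CPM (3.70 to 4.57, 350 UMIs) at D15, 7.19-fold lower (6.41 to 8.07). By UMIs, OTX2 ranked 3363rd and OTX1 3942nd at D10 among 22721 genes with a UMI. At D15 OTX2 ranked 9454th and OTX1 15098th among 22206. The 2 OTX genes thus stood close to each other at D10 and far apart at D15.

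EMX2 moved the other way. It was at 0.922 CPM (0.712 to 1.18, 65 UMIs) at D10 and at 6.68 CPM (6.15 to 7.26, 568 UMIs) at D15, a 7.25-fold higher level (5.60 to 9.52). EN1 had 0 UMIs in the D10 library, where 3 UMIs would correspond to 0.0426 CPM. At D15 it had 47 UMIs or 0.553 CPM (0.406 to 0.736), which is 13.0-fold that limit. The exact interval of its ratio, with 0 UMIs at D10, starts at 10.2. LHX2 had 3 UMIs at D10 and 21 at D15, a ratio of 5.81 with a wide interval of 1.73 to 30.4. GBX2 had 7 and 25 UMIs, a ratio of 2.96 (1.25 to 8.11). SIX3 had 36 and 32 UMIs, a ratio of D15 to D10 of 0.737 (0.443 to 1.22), and LHX9 had 19 and 18 UMIs, a ratio of 0.786 (0.389 to 1.58). The intervals of SIX3 and LHX9 span 1, so a change in either was not detectable at this depth. EMX1, with 2 and 3 UMIs, and EN2, with 2 and 16 UMIs, had under 20 UMIs in all and were not counted.

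A gene was counted as past 2-fold on CPM + 0.1 where it had at least 20 UMIs over both sums. Of the 8 members with enough UMIs, 3 (EMX2, EN1 and LHX2) were higher and 2 (OTX1 and OTX2) lower at D15. Over all 17135 genes with enough UMIs the shares were 11.2% and 16.4%. EN1 and LHX2 reached the minimum of 20 UMIs only through the D15 library, where they were high. The count of higher members is therefore not read against that share. The log2 ratios of EMX2, EN1, LHX2, OTX1 and OTX2 were 2.73, 2.71, 1.28, -6.18 and -2.82, beside a median of -0.19 over all genes. GBX2, at 0.98, fell just short because the added 0.1 CPM weighs on low levels. Scaling by the trimmed mean of M values (TMM) moved the median of all genes by 0.19, and EN1, EMX2, OTX1 and OTX2 kept their direction under every alternative tried. The calls of EN1 and LHX2 were lost with a pseudocount of 1 CPM, which left 3 members of 8 past 2-fold. LHX2 was also lost with kept cells only and without the 5% of cells with most UMIs, and GBX2 was gained under TMM scaling, with equal weight per cell and without those 5%. In such sums, fewer cells of a type and less RNA per cell cannot be told apart.

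**Figure D1:**
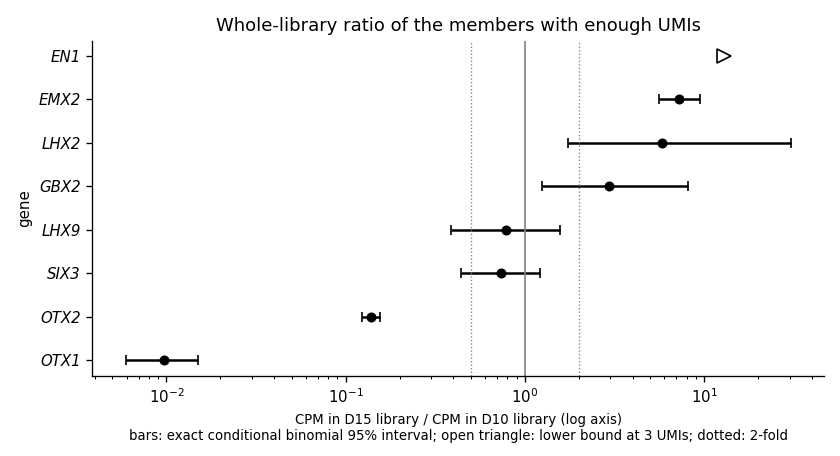
Ratio of CPM in the D15 library to CPM in the D10 library (log axis) for the 8 members with at least 20 UMIs over both libraries, with exact conditional binomial 95% intervals. OTX1 and OTX2 lie below 1 and EMX2 above it. EN1, with 0 UMIs at D10, is drawn as an open triangle at 13.0, its ratio to the level of 3 UMIs at D10.

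In the D10 library both OTX genes were highest in NEP cells and in the ENCCs outside the numbered subclusters. OTX1 was at 65.7 CPM in NEP (61.5 to 70.1, 922 UMIs), at 53.3 CPM in ENCCs outside the numbered subclusters (44.2 to 63.8), at 5.58 CPM in CP (3.05 to 9.37) and at 2.71 CPM in NNE (0.879 to 6.32). In the numbered ENCC subclusters it was at 0.958 CPM in ENC 1, 0.724 CPM in ENC 4, 0.617 CPM in ENC 2 and 0.445 CPM in ENC 3, on 22, 1, 5 and 1 UMIs. The step from ENCCs outside the subclusters to CP was the 1 place in this order where the intervals of neighbours did not overlap. NEP cells held 84.6% of the OTX1 UMIs of kept cells and ENCCs outside the subclusters another 11.01%.

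OTX2 followed the same order at the top and stayed higher below it. It was at 68.0 CPM in NEP (63.8 to 72.5, 955 UMIs), 66.2 CPM in ENCCs outside the subclusters (56.0 to 77.8), 18.3 CPM in CP (13.4 to 24.5) and 8.12 CPM in NNE (4.55 to 13.4). ENC 2 had 7.77 CPM (5.97 to 9.94), ENC 1 7.67 CPM (6.57 to 8.89), ENC 4 7.24 CPM (3.47 to 13.3) and ENC 3 2.67 CPM (0.980 to 5.81). CP lay above NNE, and from NNE downwards the intervals of neighbours in this order overlapped.

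**Figure D2:**
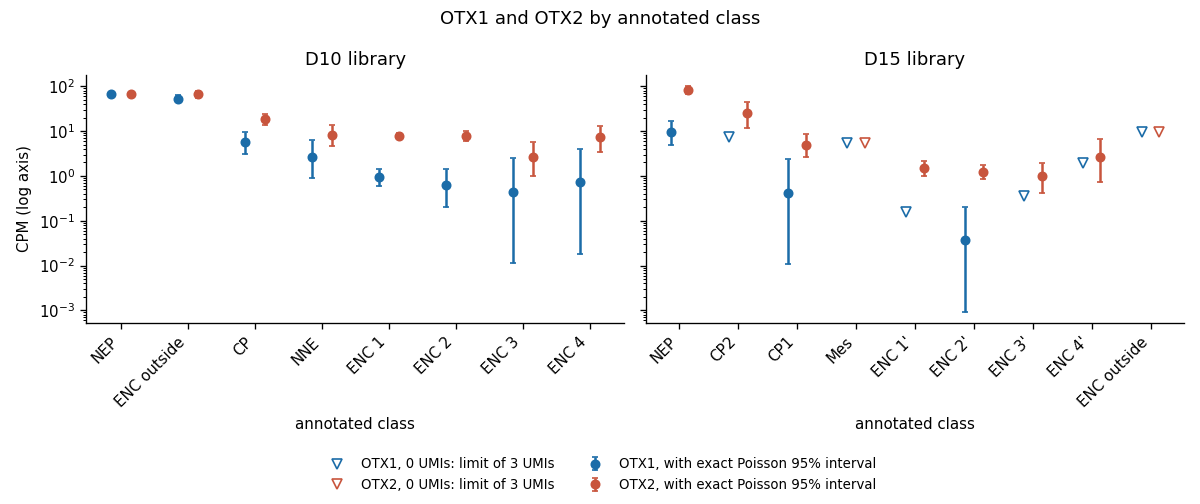
CPM (log axis) of OTX1 and OTX2 in each annotated class of the D10 (left) and D15 (right) libraries, with exact Poisson 95% intervals and open triangles for the level of 3 UMIs where none was counted. At D10 both genes peak in NEP and in ENCCs outside the numbered subclusters, and OTX2 lies above OTX1 in the numbered subclusters.

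NEP cells were compared with ENCCs at D10. The 3 members with enough UMIs, OTX1, OTX2 and EMX2, were all past 2-fold higher in NEP, against 19.9% of 14523 genes. OTX1 was 16.3-fold higher (13.7 to 19.5), OTX2 6.22-fold (5.53 to 7.01) and EMX2 9.54-fold (4.26 to 24.2, on 29 and 8 UMIs). EMX2 reached the minimum of 20 UMIs through NEP cells, where it was high, so that being counted and being higher were largely 1 condition. With the numbered subclusters alone as ENCCs, the log2 ratios went from 3.99 to 6.14 for OTX1, from 2.63 to 3.19 for OTX2 and from 2.77 to 4.07 for EMX2. Clusters were made from the same cells and genes, so these values describe the clusters and test nothing. CP and NNE cells were set against the same ENCCs, and 0 of the 2 members with enough UMIs, OTX1 and OTX2, were past 2-fold in either comparison, where 16% and 27.9% of all genes were. Against the numbered subclusters alone, both were past 2-fold higher in CP, at log2 ratios of 2.60 for OTX1 and 1.31 for OTX2, and OTX1 was past it in NNE at 1.59.

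OTX1 and OTX2 were each seen in about the same number of NEP cells. A UMI of OTX1 was present in 649 of 1811 NEP cells (35.8%) and of OTX2 in 683 (37.7%), and 268 cells held both. After each cell was thinned to 3000 UMIs, which equalizes depth, the shares were 17.7% (16.0 to 19.6) and 18.5% (16.8 to 20.4) of 1798 cells. Most positive cells held a single UMI, 446 for OTX1 and 478 for OTX2, and the highest were 6 and 5 UMIs. Of the 649 OTX1-positive NEP cells, 98.2% held a UMI of WNT2B and 93.7% of PAX6, the NEP markers, against 87.8% and 84.5% of all NEP cells, without thinning. By the deposited cell cycle phase, OTX1 in NEP was at 71.7 CPM in G1 (66.4 to 77.4), 62.4 CPM in G2M (52.5 to 73.6) and 45.9 CPM in S (37.8 to 55.1). OTX2 was at 68.9 CPM in G1 (63.7 to 74.5), 77.0 CPM in G2M (66.0 to 89.3) and 56.4 CPM in S (47.4 to 66.6).

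The numbered ENCC subclusters differed from NEP in the balance of the 2 OTX genes. OTX2 made up 50.9% of the OTX1 and OTX2 UMIs in NEP (exact binomial 95% interval 48.6 to 53.2, n = 1877 UMIs), 55.4% in ENCCs outside the subclusters (49.2 to 61.4) and 52.0% in cells marked as filtered (49.2 to 54.8). In the numbered ENCC subclusters together it made up 89.8% (85.7 to 93.1), on 255 of 284 UMIs, and the interval did not overlap that of NEP. CP lay between them at 76.7% (64.0 to 86.6, n = 60 UMIs). Expressed against the NEP level, the numbered subclusters held 1.27% of the OTX1, 1.30% of the WNT2B and 1.17% of the PAX6 level, and 10.8% of the OTX2 level. The first 3 stood near each other and OTX2 stood apart. The RNA free in the droplets was not measured, and its part in these levels was not tested.

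**Figure D3:**
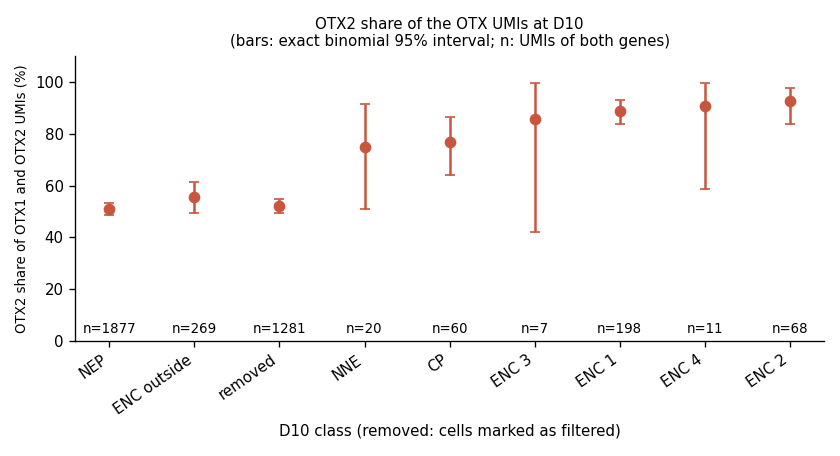
OTX2 as a percent of the OTX1 and OTX2 UMIs in each D10 class, with exact binomial 95% intervals and the number of UMIs. NEP, ENCCs outside the numbered subclusters and filtered cells lie between 50.9% and 55.4%, and ENC 1 and ENC 2 lie at 88.9% and 92.6%.

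The OTX2 UMIs of the numbered subclusters were spread thinly over cells. They were found in 243 of 4665 cells (5.21%, 4.59 to 5.89), of which 233 held 1 UMI, 8 held 2 and 2 held 3, at a median depth of 6943 UMIs per cell. Thinned to 3000 UMIs, 2.10% of cells were positive (1.71 to 2.55), against 18.5% of NEP cells and 0.279% (0.148 to 0.476) for OTX1 in the same subclusters. The OTX2-positive cells had WNT2B at 9.48 CPM and the others at 10.8 CPM, PAX6 at 8.48 and 6.58 CPM, and SOX10, the crest transcription factor, at 133 and 125 CPM. Apart from OTX2 itself, these cells thus had the NEP and crest markers at levels close to those of the other ENCCs. OTX1 was found together with OTX2 in 3 of the 4665 cells.

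At D15 OTX2 was highest in the small non-crest clusters, and OTX1 had 13 UMIs in all kept cells. OTX2 was at 82.8 CPM in the cluster annotated NEP (67.0 to 101, 95 UMIs), 24.9 CPM in CP2 (11.9 to 45.7, 10 UMIs), 5.02 CPM in CP1 (2.60 to 8.78, 12 UMIs) and 1.31 CPM in ENCCs (1.02 to 1.64, 73 UMIs). The intervals of these first 3 did not overlap. Among the subclusters, ENC 4' had 2.64 CPM, ENC 1' 1.47 CPM, ENC 2' 1.23 CPM and ENC 3' 0.976 CPM, with overlapping intervals. The 47 Mes cells had 0 UMIs, where 3 UMIs correspond to 5.35 CPM. OTX1 had 11 UMIs in the cluster annotated NEP (9.59 CPM, 4.79 to 17.2), 1 in CP1 and 1 in 4934 ENCCs. Set side by side, the clusters annotated NEP had OTX1 at 65.7 and 9.59 CPM and OTX2 at 68.0 and 82.8 CPM at D10 and D15.

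Within ENCCs, whose markers summed to 697 CPM at D10 and 415 CPM at D15, both members with enough UMIs were past 2-fold lower at D15. Over all 15038 genes with enough UMIs the share was 12%. OTX1 reached the minimum of UMIs only through D10 ENCCs, where it was high, so the count is not read against that share. OTX2 went from 10.9 CPM (9.89 to 12.1, 404 UMIs) to 1.31 CPM, 8.37-fold lower (6.51 to 10.9). OTX1 went from 4.03 CPM (3.41 to 4.74, 149 UMIs) to 0.0179 CPM on 1 UMI, a ratio of 225 with a counting interval of 39.8 to 8955. Of those 149 D10 UMIs, 120 came from the 256 ENCCs outside the subclusters. In the numbered subclusters alone the levels were 7.35 CPM (6.48 to 8.31) and 1.31 CPM (1.03 to 1.65) for OTX2 and 0.836 CPM (0.560 to 1.20) and 0.018 CPM for OTX1, log2 ratios of -2.40 and -2.99. The thinned share of OTX2-positive cells in them was 2.10% at D10 and 0.489% (0.314 to 0.727) at D15, and the unthinned shares were 5.21% and 1.47%. At D15 the numbered subclusters held 1.59% of the OTX2 level of the cluster annotated NEP, 2.08% of its WNT2B level and 0.128% of its PAX6 level.

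In the D15 library CP1, a placode-derived cluster with NEUROD1 and POU4F1 among its 10 leading genes, had 1 member with enough UMIs for a ratio to ENCCs. This was OTX2, past 2-fold higher at 3.84-fold (1.90 to 7.13), against 17.6% of 13948 genes. The cluster annotated NEP, compared with ENCCs after its values were seen, had OTX2, EMX2 and EN1 past 2-fold higher, where 23.2% of 13890 genes were. EMX2 and EN1 reached the minimum of UMIs only through this cluster, so the count of members is not read against that share. OTX2 was 63.4-fold higher there (46.2 to 87.2) and EMX2 2843-fold (1205 to 8822, on 292 and 5 UMIs). EN1, with 31 UMIs and 0, was at 503-fold the level of 3 UMIs, and the exact interval of its ratio starts at 385. TMM scaling lowered the median over all genes of this comparison by 0.52 on the log2 scale.

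EMX2 at D15 was concentrated in that small cluster, in which it was the gene with the highest fold over the other kept cells. The 104 cells held 292 of the 299 EMX2 UMIs of kept cells (97.7%), a level of 255 CPM (226 to 285). Mes cells had 3.57 CPM (0.432 to 12.9, 2 UMIs), ENCCs had 0.0895 CPM (0.029 to 0.209, 5 UMIs), and CP1 and CP2 had 0. In D10 NEP cells, for side-by-side reading, EMX2 was at 2.07 CPM (1.38 to 2.97, 29 UMIs). A UMI was found in 55 of 104 cells (52.9%, 42.9 to 62.8) and, after thinning to 3000 UMIs, in 40.4% (30.9 to 50.5), against 5 of 4934 ENCCs (0.101%) at nearly the same median depth of 11082 UMIs, 10953.5 in the cluster. Of the 55 positive cells, 12 held 1 UMI and 10 held 2, while 33 held 3 or more and 17 held 8 or more, up to 13.

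**Figure D4:**
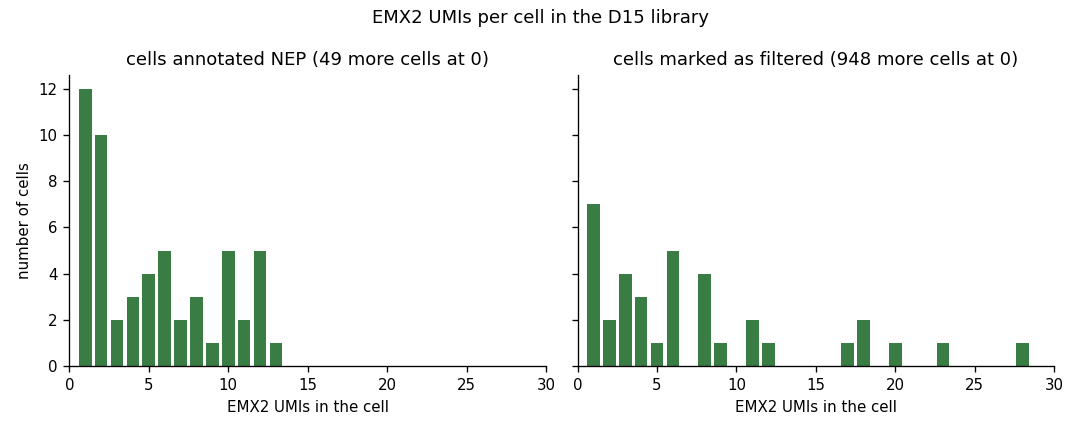
Number of D15 cells by the EMX2 UMIs they held, among the 104 cells annotated NEP (left) and the 984 cells marked as filtered (right), leaving out cells with 0. In both, cells with 8 or more EMX2 UMIs are present, 17 on the left and 14 on the right.

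The EMX2-positive cells of the cluster differed from its other cells in epithelial genes. The keratin gene KRT19 was at 29.3 CPM in the 55 positive cells (17.4 to 46.3) and at 328 CPM in the 49 others (282 to 381). EPCAM, an epithelial adhesion gene, was at 8.14 CPM (2.64 to 19.0) and 78.8 CPM (56.8 to 107). PAX6 was at 140 CPM (112 to 173) and 80.7 CPM (58.4 to 109), WNT2B at 140 CPM (112 to 173) and 103 CPM (77.7 to 134), and KRT18 at 283 CPM (243 to 329) and 478 CPM (422 to 541). Median depths were 10890 and 10954 UMIs. The KRT19 and EPCAM signal of the annotated cluster thus lay mostly in the cells without EMX2, while KRT18 was high in both groups. The split was made on EMX2 after its values were seen.

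Other members shared these cells. All 31 EN1 UMIs of kept D15 cells were in the cluster (27.0 CPM, 18.4 to 38.4), in 20 cells, of which 14 also held EMX2 and 14 held OTX2. LHX9 had 11 UMIs there (9.59 CPM, 4.79 to 17.2) in 6 cells, and all 6 held EMX2. GBX2 had 8 UMIs (6.97 CPM, 3.01 to 13.7) in 5 cells, of which 4 held EMX2 and 2 held OTX2. EMX2 and OTX2 were found together in 27 cells, 49.1% of the 55 EMX2-positive and 55.1% of the 49 OTX2-positive cells. OTX2-positive cells made up 47.1% of the cluster, so the overlap was close to the share of the cluster at large. EMX2 in OTX2-positive and OTX2-negative cells was at 250 CPM (211 to 295) and 259 CPM (219 to 304).

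SIX3 was highest in the clusters annotated CP2 and CP1 at D15. It was at 14.9 CPM in CP2 (5.48 to 32.5, 6 UMIs in 3 of 43 cells) and at 2.93 CPM in CP1 (1.18 to 6.04, 7 UMIs), with 1 UMI in the cluster annotated NEP and 2 in ENCCs. At D10 its 19 UMIs of kept cells comprised 14 in NEP (0.997 CPM, 0.545 to 1.67), 3 in CP (1.20 CPM, 0.247 to 3.50) and 2 in ENC 2. CP2 also held 2 of the 12 LHX2 UMIs of kept cells. CP1 and CP2 could not be separated in SIX3 by their intervals, and both lay above ENCCs at 0.0358 CPM (0.0043 to 0.129).

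EN2, LHX2 and EMX1 were the members whose kept D15 UMIs lay mostly in ENCCs. EN2 had 10 of 12 there, at 0.179 CPM (0.0859 to 0.329), with 2 in ENC 1', 5 in ENC 2' and 3 in ENC 3', and LHX2 had 9 of 12, at 0.161 CPM (0.0737 to 0.306). ENCCs made up 92.5% of kept cells, so the shares of EN2 and LHX2 lay below the share of cells. At D10 EN2 had 1 UMI in 4921 ENCCs and LHX2 had 0, where 3 UMIs correspond to 0.0812 CPM. EMX1, the other EMX gene, had 2 UMIs in ENC 1' and 1 in D10 CP cells. EN1 had 0 UMIs in all 9627 D10 cells and in all 4934 D15 ENCCs.

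**Figure D5:**
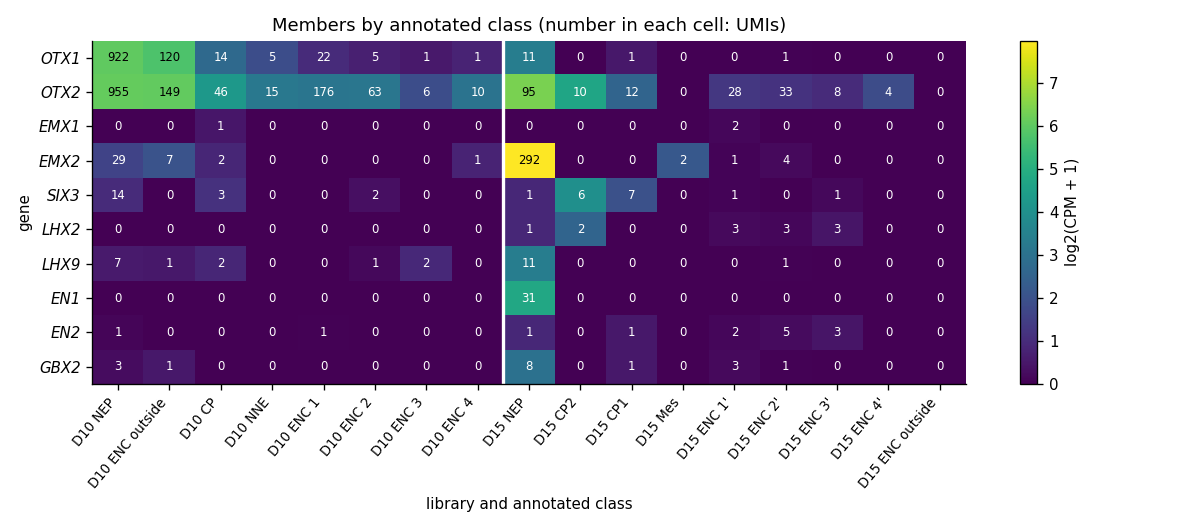
Level of each member, as log2(CPM + 1), in each annotated class of both libraries, with the number of UMIs written in each field. OTX1 and OTX2 stand out in D10 NEP and in ENCCs outside the numbered subclusters, and EMX2 with EN1, LHX9 and GBX2 in the D15 cluster annotated NEP.

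Genes with a pattern like that of a member were sought over the 17 disjoint classes of both libraries, by Pearson's r of log2(CPM + 1) among 7837 genes reaching 20 CPM in a class. The classes share libraries, and the values are descriptions. OTX1 was most like RP11-527D7.1, HSD17B2, LIX1 and WNT2B (r = 0.97, 0.97, 0.97 and 0.96) and ZFHX4 (0.96), whose highest levels were all in D10 NEP. OTX2 was most like TPPP3, NLGN1, SNAPC5, TRPM3 and LGR4 (0.94 to 0.91), with TPPP3 highest in the D15 cluster annotated NEP. EMX2 was most like EMX2OS (0.99), C11orf88, MXRA5, CDH18 and, at 0.92, its fellow member EN1. All of these were highest in the D15 cluster annotated NEP. EMX2 was at 255 CPM there and at most 3.57 CPM in any other class, so its likeness rests mostly on that class. EMX2OS is the antisense neighbour of EMX2, and without a stated strand setting the reads of the pair cannot be told apart where they overlap. EMX2OS had 65 UMIs or 56.7 CPM (43.7 to 72.2) in the D15 cluster annotated NEP and 13 UMIs in D10 NEP. OTX2-AS1 had 7 and 11 UMIs in the same clusters, and SIX3-AS1 had 6 in D10 NEP.

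Other regional genes were followed in lists beside the members, at whole-library level. Of the 12 forebrain genes, 7 had enough UMIs, of which 1 was past 2-fold higher and 4 lower at D15, beside 11.2% and 16.4% of all genes, with a median log2 ratio of -1.70. The lower genes included SIX6, a close relative of SIX3, from 606 UMIs to 1, and PAX6 from 14505 to 402. VAX1, a gene of the optic stalk region, went from 0 UMIs to 39 and had 33 of these in ENCCs. Of the 9 midbrain and isthmus genes 6 were counted, with FGF18, PAX2 and PAX5 higher and PAX8, LMX1A and LMX1B lower, at a median of -0.66. Of the 10 hindbrain genes 9 were counted, with 7 lower, at a median of -3.33, and EGR2, a gene of rhombomeres and of Schwann cells, higher, from 18 to 406 UMIs. The median over all genes was -0.19. HOXB1, a hindbrain gene, went from 1036 UMIs to 0. VAX1 and EGR2 reached the minimum of UMIs only through the D15 library, where they were high. SIX6 and HOXB1 reached it only through the D10 library. The counts and medians of these lists therefore describe the lists and are not read against those of all genes. The 8 counted members had a median of 0.37. Of these, EN1, LHX2 and GBX2 reached the minimum only through the D15 library, so this median is not set against the others. Of the relatives CRX, GBX1 and SIX6, 2 were counted, with SIX6 lower. Of the antisense neighbours, 3 are listed and 2 were counted, with EMX2OS higher and OTX2-AS1 lower.

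The same lists were read in D10 NEP cells against ENCCs, where 19.9% of all genes were past 2-fold higher and the median over them was 0.23, which TMM scaling lowered by 0.31. Forebrain genes had 4 of 5 past 2-fold higher (median 3.75), midbrain and isthmus genes 3 of 3 (median 2.45) and hindbrain genes 6 of 6 (median 4.01). With the numbered subclusters alone as ENCCs these counts were the same, at medians of 4.48, 3.02 and 5.05. Of those 5, 3 and 6 genes, 3, 1 and 5 reached 20 UMIs in ENCCs themselves, and the others were counted through NEP cells, so the counts describe the cluster. SIX6 was at 27.4 CPM in NEP, 1.57 CPM in ENCCs and 0.231 CPM in the numbered subclusters. FEZF2, a forebrain zinc finger gene, was at 3.42, 0.162 and 0.0576 CPM in the same order, and LMX1A, a roof plate and midbrain gene, at 24.9, 0.920 and 0.346 CPM. HOXB1 was at 28.6, 0.974 and 0.605 CPM and HOXB2 at 30.1, 10.3 and 9.68 CPM. NEP cells as a class thus held OTX genes and hindbrain HOX genes at once. The higher hindbrain genes were not particular to NEP. Against the same ENCCs, 4 of 5 were past 2-fold higher in CP (median 1.84) and 7 of 7 in NNE (median 5.00). Of those 5 and 7 genes, 5 and 5 reached 20 UMIs in ENCCs themselves, and the others were counted through NNE cells. In those comparisons 16% and 27.9% of all genes were past 2-fold in either direction.

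Within ENCCs between stages, where 12% of all genes were past 2-fold lower and 11.1% higher, the lists depended on the cells outside the numbered subclusters, 256 at D10 and 27 at D15. With them, 2 of 4 forebrain genes (SIX6 and PAX6) were lower and VAX1 was higher (median -1.59), LMX1A was lower, and 5 of 6 hindbrain genes were lower (median -3.11), beside a median of -0.15 over all genes. Without them, PAX6 was lower and HESX1, an anterior homeobox gene, and VAX1 were higher of 3 counted forebrain genes, and the median was 1.01. LMX1A then had too few UMIs to be counted, and 3 of 5 hindbrain genes were lower (median -2.82), beside -0.11 over all genes. VAX1 and EGR2 reached the minimum of UMIs only through D15 ENCCs, where they were high. SIX6, PAX6 and HOXB1 reached it only through D10 ENCCs. The counts and medians therefore describe the lists and are not read against those of all genes.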

How the data were processed

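Single cells were sequenced with the Chromium Single Cell 3′ chemistry from 1 pooled library per stage. The authors' methods name kallisto and bustools for quantification, and the submitters' processing notes name Cell Ranger, GRCh38 and Seurat 4.0.4. The annotation release and the strand setting are not given in the sources used here. The deposited matrices hold raw UMI counts, whole numbers without normalization. The deposited annotation gives each cell's UMI count, its percent of mitochondrial and ribosomal UMIs, a novelty score (not used here), a phase, a cell type and a subtype. The authors filtered cells on genes, UMIs and mitochondrial percent, and clustered each library on its own. The paper also describes separating pooled samples by antibody tags and removing some clusters. It names no separate doublet step, and none was added here.

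For each class, counts were added over its cells and scaled by the total UMIs of those cells (CPM). Intervals are exact at 95% (Poisson for sums, Clopper-Pearson for shares, conditional binomial for ratios), and with the limit of 3 UMIs for a count of 0 they cover counting error only. With 1 library per stage no test was run and no SD exists. A call meant past 2-fold on CPM + 0.1 with at least 20 UMIs over both sums. Shares were read after thinning each cell to 3000 UMIs, which kept 9041 of 9627 cells at D10 and all 6320 at D15. The 10 members, the companion lists (forebrain, midbrain and isthmus, hindbrain, family relatives, antisense neighbours) and the markers were chosen with earlier results of these data known. All of them could be named, together with the 5 genes most like each member with at least 100 UMIs, but not every listed gene is reported here. SIX6 is in the forebrain and relatives lists, and PAX6 is also a NEP marker. Alternatives were a pseudocount of 1 CPM, TMM scaling (edgeR 4.0.16 in R 4.3.3), no UMI minimum, equal weight per cell, leaving out the 5% of cells with most UMIs, kept cells only, other thinning, and, added after seeing the data, numbered ENCC subclusters only. Python 3.11.15, numpy 2.4.6, scipy 1.17.1 and pandas 2.3.3 were used, and calls, intervals, thinning and likeness were tested on simulated data. Upstream sequences came from RefSeq on GRCh38.p14, and gene positions from GENCODE 29.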

Additional observations from a re-analysis of the deposited data

Results flagged for a closer look

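Cells that the deposited annotation marks as filtered enter no comparison between cell types, and members were counted in them above the limit of 3 UMIs. At D10 the 2332 filtered cells held 615 UMIs of OTX1, 666 of OTX2, 26 of EMX2, 17 of SIX3 and 6 of LHX9. These were 36.1%, 31.9%, 40.0%, 47.2% and 31.6% of each gene's UMIs, while filtered cells held 21.5% of all UMIs. Their OTX1 level was 40.6 CPM (37.5 to 43.9) and their NEP markers summed to 878 CPM.

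At D15 the 984 filtered cells held 7 UMIs of OTX1, 160 of OTX2, 269 of EMX2, 16 of SIX3, 9 of LHX2, 6 of LHX9, 16 of EN1, 4 of EN2 and 12 of GBX2. Filtered cells held 28.98% of all D15 UMIs, 47.4% of the EMX2 and 45.7% of the OTX2 UMIs, and 929 of them exceeded the limit on detected genes. The EMX2 UMIs lay in 36 cells, of which 27 held at least 3 UMIs and together 258. Their median depth was 19943 UMIs, with 4139 detected genes. In these 27 cells OTX2 was at 87.5 CPM (64.7 to 116), EN1 at 23.2 CPM (12.4 to 39.7), PAX6 at 116 CPM (89.6 to 148) and KRT19 at 14.3 CPM (6.17 to 28.1). The other 957 filtered cells had OTX2 at 4.61 CPM (3.79 to 5.55), EN1 at 0.125 CPM (0.0257 to 0.364), PAX6 at 1.83 CPM and KRT19 at 12.7 CPM. EMX2, OTX2 and EN1 were thus found in the same small group of cells outside the annotated clusters too, and SOX10 in it was at 16.1 CPM (7.35 to 30.5) against 65.5 CPM in the others.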

How the results depend on the processing

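No paired analysis was possible because the stages share 1 replicate number and each is 1 library, which also leaves no replicate to leave out. The count of members past 2-fold between whole libraries went from 5 of 8 to 3 with a pseudocount of 1 CPM, which lost EN1 and LHX2. Without a UMI minimum more members with few UMIs were counted, and the counts in either direction were 4 for ENCCs between stages, 6 for D10 NEP, 4 for CP, 2 for NNE and 5 for CP1, against 2, 3, 0, 0 and 1. LHX2 and EN2, added for ENCCs, counted as higher while OTX1 and OTX2 were lower. The interval of EN2, on 10 and 1 UMIs, ran from 0.941 to 287, so a higher level was not detectable. Intervals also spanned 1 for GBX2 added for D10 NEP, for EMX1, EMX2 and LHX9 added for CP, and for OTX1 and GBX2 added for CP1. EMX2 and LHX9, added for NNE, and LHX2, added for CP1, counted as lower on 0 UMIs in those cells. The intervals of their ratios ran from 0 to 11.7, 30.3 and 11.8, so a lower level was not detectable at this depth. With numbered subclusters alone as ENCCs, the counts were 2 for CP and 1 for NNE in place of 0 and 0. GBX2 passed 2-fold under TMM scaling, with equal weight per cell and without the 5% of cells with most UMIs, and LHX2 was lost with kept cells only and without those 5%. No direction of a called member was reversed under the alternatives run. Depth limits EMX1, EN2, LHX2, GBX2 and D10 SIX3 and LHX9, which rest on 36 UMIs or fewer per library.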
